A study of Mus musculus with 10 samples.

Results

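Keratinocytes that differentiated while C/EBP proteins were blocked were compared with keratinocytes that had not differentiated. The members were chosen by sample title. They are 4 of the 10 expression arrays of the series, namely the 2 A-C/EBP expressing differentiated samples and the 2 undifferentiated samples. The question is which part of differentiation proceeds without C/EBP function, and the differences are taken with none of the 4 differentiated controls. Those controls show where the A-C/EBP samples stand relative to ordinary differentiation. Like the other arrays of the series, they also enter the estimate of spread behind the p-values.

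All samples were primary cultures of epidermal keratinocytes from newborn mice. The undifferentiated and the differentiated cells came from wild type FVB mice. The undifferentiated cells were kept at 0.05 mM calcium, and the differentiated cells were moved to 0.4 mM calcium for 2 days. The A-C/EBP cells came from mice that carry the A-C/EBP transgene in keratinocytes under tetracycline control. Their cultures held doxycycline, which was taken away when calcium was lowered, so that A-C/EBP was expressed before calcium was raised to 0.4 mM for 2 days. Calcium, transgene, mouse genotype and doxycycline therefore all differ between the A-C/EBP and the undifferentiated cells, and their effects cannot be told apart. The A-C/EBP and the differentiated cells share calcium and time, and differ in transgene, genotype and doxycycline. All samples are labelled FVB. Whether replicates were separate cultures or animals is not given in the sources used here, and the p-values speak only of the variation seen among these arrays, part or all of which may be technical.

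C/EBP proteins are leucine zipper transcription factors that bind DNA as dimers, and C/EBP alpha and C/EBP beta are the main members in epidermis, where they act in the step from dividing basal cells to suprabasal cells. A-C/EBP is an engineered dominant negative. It pairs with any C/EBP member through the zipper and carries an acidic stretch in place of the DNA-binding region, so that the pair cannot bind DNA. Raised calcium makes cultured keratinocytes leave the cell cycle, assemble junctions and begin to make cornified envelope proteins.

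The cultures carried the markers of keratinocytes. Of 11 such markers 10 were measured, and all 10 were above the median probe set on each of the 4 arrays. Their mean level, in log2 RMA values, was 11.86 and 11.92 in the undifferentiated replicates and 11.61 and 11.7 in the A-C/EBP replicates. Of 12 melanocyte markers 10 were above the median on all 4 arrays and 1, Gpr143, was below it. Mean levels were 6.92 and 7.11 against 6.87 and 7.3, and none passed the test. Some were far above the mean of the list. Dct was at 10.82 and 11.03 against 10.44 and 11.33, Tyrp1 at 10.29 and 10.56 against 10.23 and 10.89, and Pmel at 10.48 and 10.59 against 10.23 and 10.73. Of 26 fibroblast markers 18 were above the median on all 4 arrays and 4, with Pdgfra and Lum among them, below it. Mean levels were 6.43 and 5.98 against 5.86 and 6.34, and 1, S100a4, rose. Vim was at 10.03 and 9.86 against 8.12 and 9.71, and Tagln at 9.93 and 9.71 against 9.64 and 10.19. Of 25 immune markers 10 were above the median on all 4, with Lyz2, Tyrobp, Cd68 and Csf1r among them, and 13 below it, with Ptprc and Cd3g among them. Of 14 endothelial markers 3, Egfl7, Eng and Kdr, were above it and 9, with Pecam1, Cdh5 and Tie1 among them, below. No endothelial marker passed the test. Of the immune markers Csf1r rose by 1.03 and C1qa fell by 1.01. Of 15 muscle markers 2 rose, Acta1 by 1.21, from 8.9 and 8.19 to 10 and 9.51, and Mylpf by 1.26, beside 1.82 and 1.17 in ordinary differentiation. Of 8 adipocyte markers Lpl fell by 1.53 and Fabp4 by 1.47, and neither passed in ordinary differentiation. Of 24 hair follicle and sebaceous markers Hoxc13 fell, by 1.18. Over all genes 7.6% rose and 8.01% fell. The calls for S100a4, C1qa, Acta1 and Fabp4 were each lost when 1 array or another was left out. The part of other cell types in the results was not tested. RMA gives no call of presence, so a value below the median probe set is not shown to exceed background. The median was taken over all probe sets, with and without a gene symbol. The share of all genes above it on all 4 arrays was not counted, so the marker counts alone show neither presence nor identity.

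Across all genes the 2 A-C/EBP arrays were no further apart than some other replicates of the series. They correlated at r = 0.990 across genes, which are not independent replicates, and 1430 of 18194 genes differed by more than 0.5 between them. The undifferentiated arrays correlated at r = 0.993, and 1037 genes differed that much. Between 2 differentiated arrays 374 to 1907 genes did, and between the 2 arrays of cells treated with 5-azacytidine (5-AZA) 1628. A-C/EBP replicate 2 had the highest hybridization controls of all 10 arrays, 11.34 against 9.03 to 10.59 on the others. The same array was unlike the others in sex-linked transcripts: Xist was at 9.93 against 5.84 to 8.27 and Eif2s3y was at 3.74 against 5.4 to 6.03 on the others. The part of hybridization or of the sex of the pups in the results was not tested. Median probe sets lay between 4.64 and 4.78 on the 10 arrays.

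Differentiation with C/EBP blocked changed about as many genes upward as downward. Of 18194 genes, 1383 rose and 1457 fell, 7.6% and 8.01% of those tested (limma, Benjamini-Hochberg adjusted p under 0.05 over all genes). The arrays of the 2 groups overlapped for 0 of these genes, and over all 18194 genes both A-C/EBP arrays lay above both undifferentiated ones in 26.3% and below them in 25.8%. By size alone, group means exceeded those of undifferentiated cells by over 0.5 (log2) in 1722 genes and fell short by over 0.5 in 1725, which is 9.46% and 9.48% of all. Every count rests on few arrays. Without A-C/EBP replicate 1 the counts were 917 rose and 1149 fell, and without A-C/EBP replicate 2 they were 1072 and 911. Without undifferentiated replicate 1 they were 897 and 853, and without undifferentiated replicate 2 they were 851 and 1100. In the ordinary differentiated cells against the same undifferentiated arrays, 1208 genes rose and 1662 fell, 6.64% and 9.13%. The direct test of A-C/EBP against differentiated cells found 271 genes higher with A-C/EBP and 106 lower, 1.49% and 0.583%. Both comparisons with undifferentiated cells share those 2 arrays, so their values are given side by side and not correlated.

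**Figure D1:**
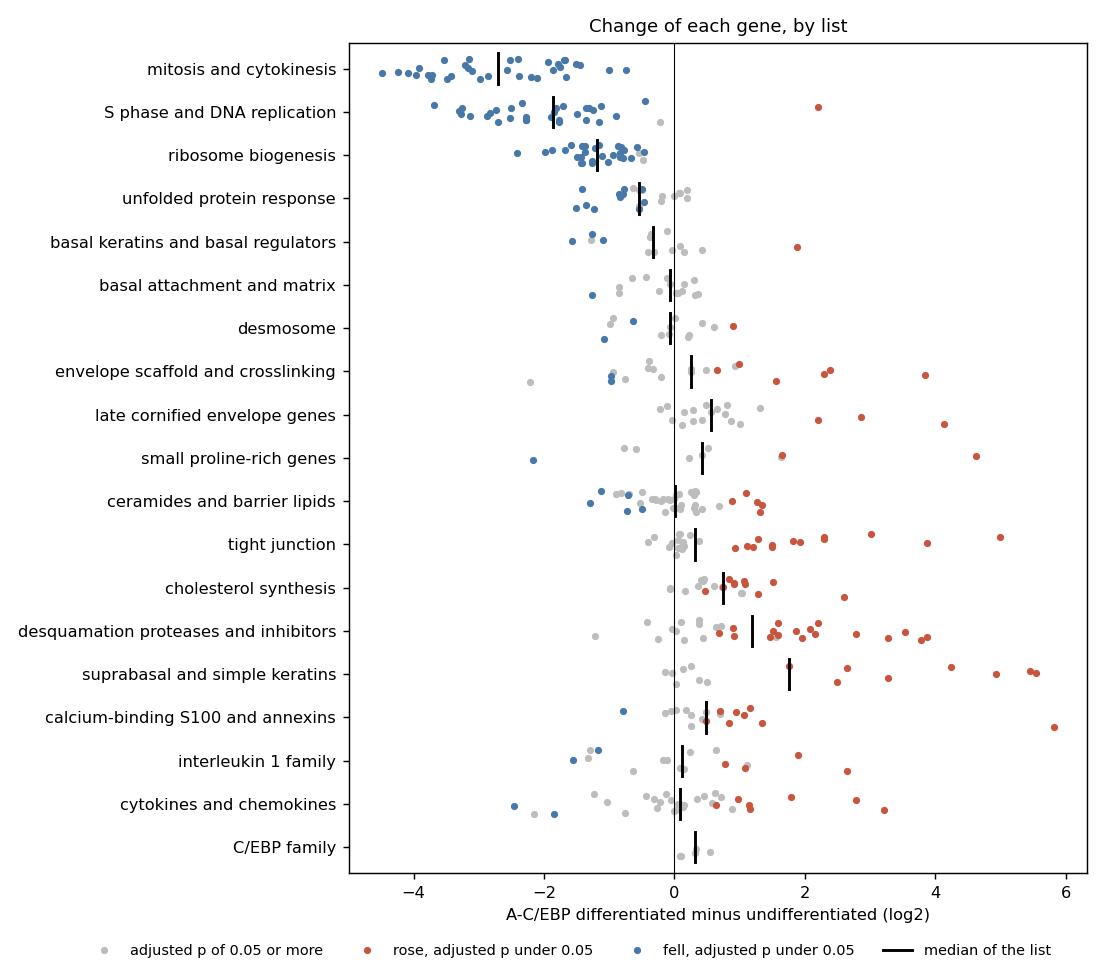
Change of each measured gene in 19 gene lists, A-C/EBP differentiated minus undifferentiated on the log2 scale. Each point is a gene, red points rose and blue points fell at a limma adjusted p under 0.05, grey points did not pass, and black bars are list medians. All 34 mitosis genes lie left of 0, and 17 of 30 desquamation genes rose, where 7.6% of all genes did.

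Cell division genes fell with C/EBP blocked. All 34 genes of mitosis and cytokinesis fell, where 8.01% of all genes did. Their median difference was -2.71, and the median over all genes was 0. Mki67, the classical marker of dividing cells, was at 10.16 and 10.11 in the undifferentiated replicates and at 5.4 and 5.9 in the A-C/EBP replicates. The groups lie far apart, and the difference was -4.48 ± 0.78 (SE, adjusted p = 0.00322). Cdk1, the kinase that starts mitosis, went from 10.44 and 10.11 to 6.58 and 6.42, a difference of -3.78. Its partner Ccnb2, cyclin B2, went from 9.9 and 9.31 to 5.65 and 5.09, a difference of -4.24. The other largest falls were of the same kind. They were Depdc1a (-4.51), Birc5 (-4.09), Ccna2 (-3.97), Ube2c (-3.91), Cep55 (-3.78), Fbxo5 (-3.73), Aurkb (-3.73) and Kif20a (-3.71), and all but Stfa3 among the 12 largest falls were cell cycle genes. Depdc1a, Cep55 and Aurkb were below the median probe set on both A-C/EBP arrays, where they are not shown to exceed background.

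S phase and DNA replication genes fell too. Of 32 measured, 30 fell and 1 rose, where 8.01% and 7.6% of all genes did, and 1 did not pass. The median was -1.86. Cdc6, which loads the replicative helicase, was at 7.88 and 7.28 in undifferentiated cells and at 4.03 and 3.76 with A-C/EBP. Its values with A-C/EBP were below the median probe set. Uhrf1, which guides maintenance DNA methylation, fell by 3.31 on the log2 scale. Tyms was at 3.66 and 3.61 against 3.32 and 3.5, below the median probe set on all 4 arrays. The gene that rose was E2f2, an E2F transcription factor, from 6.06 and 5.71 to 7.86 and 8.3. Its 4 arrays do not overlap, and the difference was 2.20 ± 0.28 (SE, adjusted p = 0.000557). Without A-C/EBP replicate 2, 34 mitosis genes and 28 S phase genes fell.

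Ordinary differentiation lowered these lists as well, with medians of -2.03 for mitosis and -1.35 for S phase. In the direct test 2 mitosis genes and 3 S phase genes were lower with A-C/EBP than in differentiated cells. Of all genes 0.583% were lower in that test. Ccnb2 lay between 6.41 and 7.54 on the 4 differentiated arrays, above both A-C/EBP arrays (difference -1.82, adjusted p = 0.0355). Gmnn, the replication inhibitor geminin, differed by -1.15 (adjusted p = 0.014), and Prim1, the DNA primase subunit, by -0.86 (adjusted p = 0.0111). None of these 3 passed without A-C/EBP replicate 2, where adjusted p was 0.328, 0.164 and 0.145, and Ccnb2 did not pass without replicate 1 either (0.0669). E2f2 was higher with A-C/EBP than in differentiated cells by 1.34 (adjusted p = 0.0252), with 0.269 when that array was left out.

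Regulators of the G1 phase, CDK inhibitors and cyclins among them, moved in both directions. Of 15 measured 2 rose and 3 fell, where 7.6% and 8.01% of all genes did, beside 2 and 4 in ordinary differentiation. Cdkn1a, the CDK inhibitor p21, rose from 10.63 and 10.45 to 11.48 and 11.42, and Cdkn2b, the inhibitor p15, from 6.84 and 6.62 to 8.7 and 8.53. The differences, 0.91 and 1.89, stood beside 0.92 and 1.5 in ordinary differentiation. Ccnd1, cyclin D1, fell from 10.58 and 10.23 to 8.46 and 8.56 (adjusted p = 0.0179), a call that was lost when any 1 of the 4 arrays was left out. Genes of ribosome biogenesis fell with the cell cycle. Of 30 measured, 28 fell and none rose, with a median of -1.18, beside 26 that fell in ordinary differentiation with a median of -0.94. In the direct test 5 were lower with A-C/EBP and none higher, where 0.583% of all genes were lower. Nop56, a core protein of box C/D particles, went from 10.66 and 10.72 to 8.75 and 8.66. In the same cells Rps19, a structural protein of the small ribosomal subunit, was at 13.27 and 13.09 against 13.13 and 12.89, a difference of -0.17 with a 95% interval of -0.59 to 0.25.

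**Figure D2:**
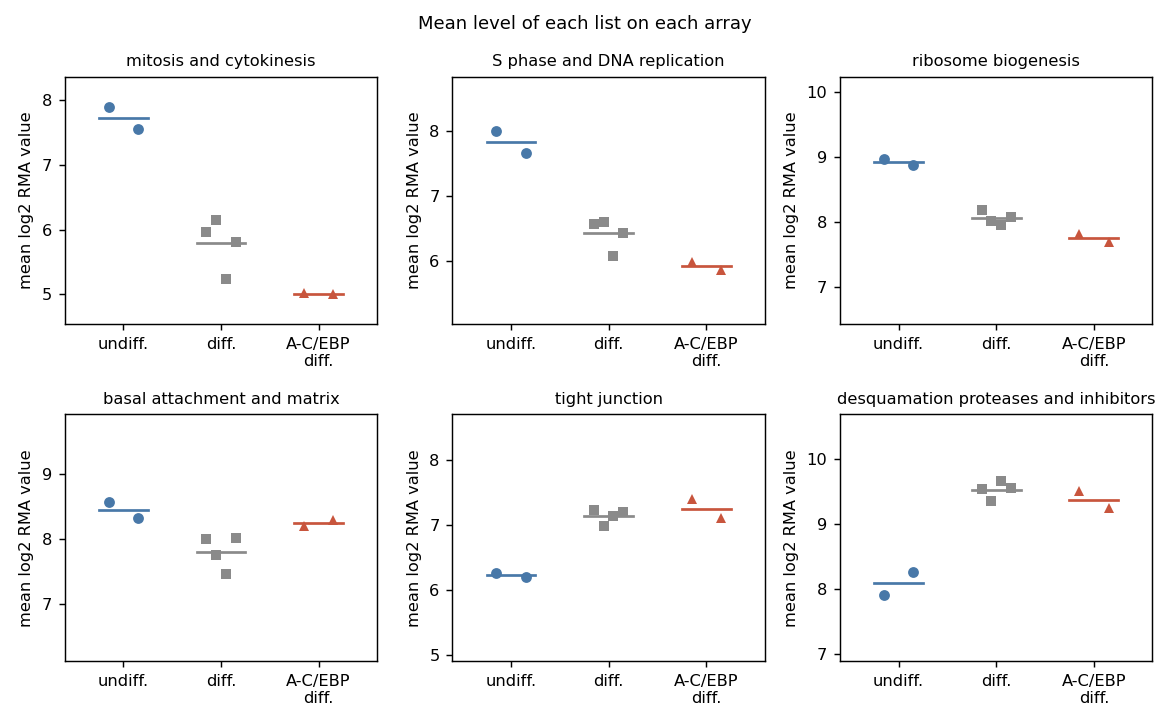
Mean log2 RMA value of the measured members of 6 gene lists on the 2 undifferentiated, 4 differentiated and 2 A-C/EBP arrays, with the group mean as a bar. Of the arrays shown, mitosis, S phase and ribosome biogenesis are lowest in the 2 A-C/EBP arrays, while the basal attachment list is at 8.19 and 8.28 there, at 8.57 and 8.32 in the undifferentiated arrays and between 7.45 and 8.01 in the differentiated ones.

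Few genes that tie basal cells to the basement membrane passed the test. Of 15 genes of basal attachment and matrix 1 fell, and 0 without either A-C/EBP array, where 8.01% of all genes fell. None rose, and the median was -0.06. In ordinary differentiation 4 fell, where 9.13% of all genes did, with a median of -0.40. Col17a1, the hemidesmosomal collagen, was at 12.57 and 12.36 in undifferentiated cells and at 11.27 and 11.13 with A-C/EBP. It fell by 1.27 with A-C/EBP (adjusted p = 0.0279) and by 2.17 in ordinary differentiation, and its call with A-C/EBP was lost when any 1 of the 4 arrays was left out. Itga6, integrin alpha 6, was at 10.5 and 10.31 against 9.72 and 10.23, with both A-C/EBP arrays just below the undifferentiated ones, and at 8.05 to 9.1 in differentiated cells. The difference between A-C/EBP and differentiated cells was 1.18 for Itga6 and 0.53 for Itgb4, its partner, and neither passed (adjusted p = 0.134 and 0.595). No member of the list passed that test, so a smaller fall with A-C/EBP is not shown.

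Basal cell identity genes were split. Of 14 basal keratins and regulators 3 fell and 1 rose, where 8.01% and 7.6% of all genes did. Trp63, the p63 transcription factor that maintains the basal state, fell from 8.32 and 8.69 to 7.24 and 7.59, a difference of -1.09 (adjusted p = 0.022). That call was lost without A-C/EBP replicate 1 (adjusted p = 0.132) and without undifferentiated replicate 2 (adjusted p = 0.143). The keratin pair of basal cells, Krt5 and Krt14, gave differences of -0.36 and 0.14 that did not pass. Krt15, a keratin of basal and hair follicle stem cells, rose from 5.65 and 5.7 to 8.02 and 7.1. It lay between 5.39 and 5.93 on the differentiated arrays, around the undifferentiated values. The direct difference of 1.85 passed (adjusted p = 0.00482) and held without either A-C/EBP array.

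Keratins of simple and suprabasal epithelia rose. Of 15 measured, 8 rose and none fell, where 7.6% and 8.01% of all genes did, with a median of 1.76. Krt8 and Krt18 pair with each other in simple epithelia. Krt8 rose from 6.05 and 5.37 to 11.49 and 11.01, a difference of 5.54 ± 0.41 (SE, adjusted p = 3.76e-05), or 46.6-fold. Krt18 rose from 6.6 and 6.21 to 12.05 and 11.65, a difference of 5.45 ± 0.33 (SE). Both are among the 3 largest rises of all genes, and both also rose in ordinary differentiation, by 4.60 and 4.34. Krt4, a keratin of internal stratified epithelia, rose from 4.85 and 5.56 to 10.14 and 10.16 and was at 6.43 to 8.07 on the differentiated arrays. Its direct difference of 2.58 passed (adjusted p = 0.0299), a call that was lost when either A-C/EBP array was left out. Krt79, Krt7, Krt19 and Krt80 rose by 4.24, 2.65, 2.49 and 1.76, beside 4.61, 2.93, 2.63 and 2.04 in ordinary differentiation. The call for Krt19 was lost without A-C/EBP replicate 1 (adjusted p = 0.17) and without either undifferentiated array (0.123 and 0.0943).

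The keratins of spinous epidermis did not behave in this way. Krt1 was at 9.18 and 10.98 in undifferentiated cells and at 10.21 and 10.95 with A-C/EBP. Its partner Krt10 was at 8.33 and 9.96 against 8.66 and 9.33. In both cases the undifferentiated replicates were further apart than the group means, and the differences of 0.50 and -0.15 did not pass. For Krt1 the difference was -0.40 without undifferentiated replicate 1 (adjusted p = 0.643) and 1.39 without undifferentiated replicate 2, which passed (adjusted p = 0.0305). In ordinary differentiation Krt1 and Krt10 gave -1.29 and -1.21, which did not pass (adjusted p = 0.0669 and 0.0757). The direct differences were 1.79 and 1.07 and did not pass (adjusted p = 0.0642 and 0.263), and that of Krt1 passed when either undifferentiated array was left out of the estimate of spread (adjusted p = 0.0122). Krt77, a keratin of suprabasal cells and sweat ducts, rose from 4.5 and 5.1 to 6.9 and 9.25, a difference of 3.27 beside 0.66 in ordinary differentiation. Its direct difference of 2.61 passed (adjusted p = 0.0351) but not without A-C/EBP replicate 2 (adjusted p = 0.173) or either undifferentiated array (0.0522). Krt6b, a keratin of wounds and of culture, fell from 12.83 and 13.31 to 11.87 and 10.02 (adjusted p = 0.0135), with -0.27 in ordinary differentiation. That fall did not pass without undifferentiated replicate 2 (adjusted p = 0.091), and the direct test gave -1.85 and did not pass (adjusted p = 0.0562).

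**Figure D3:**
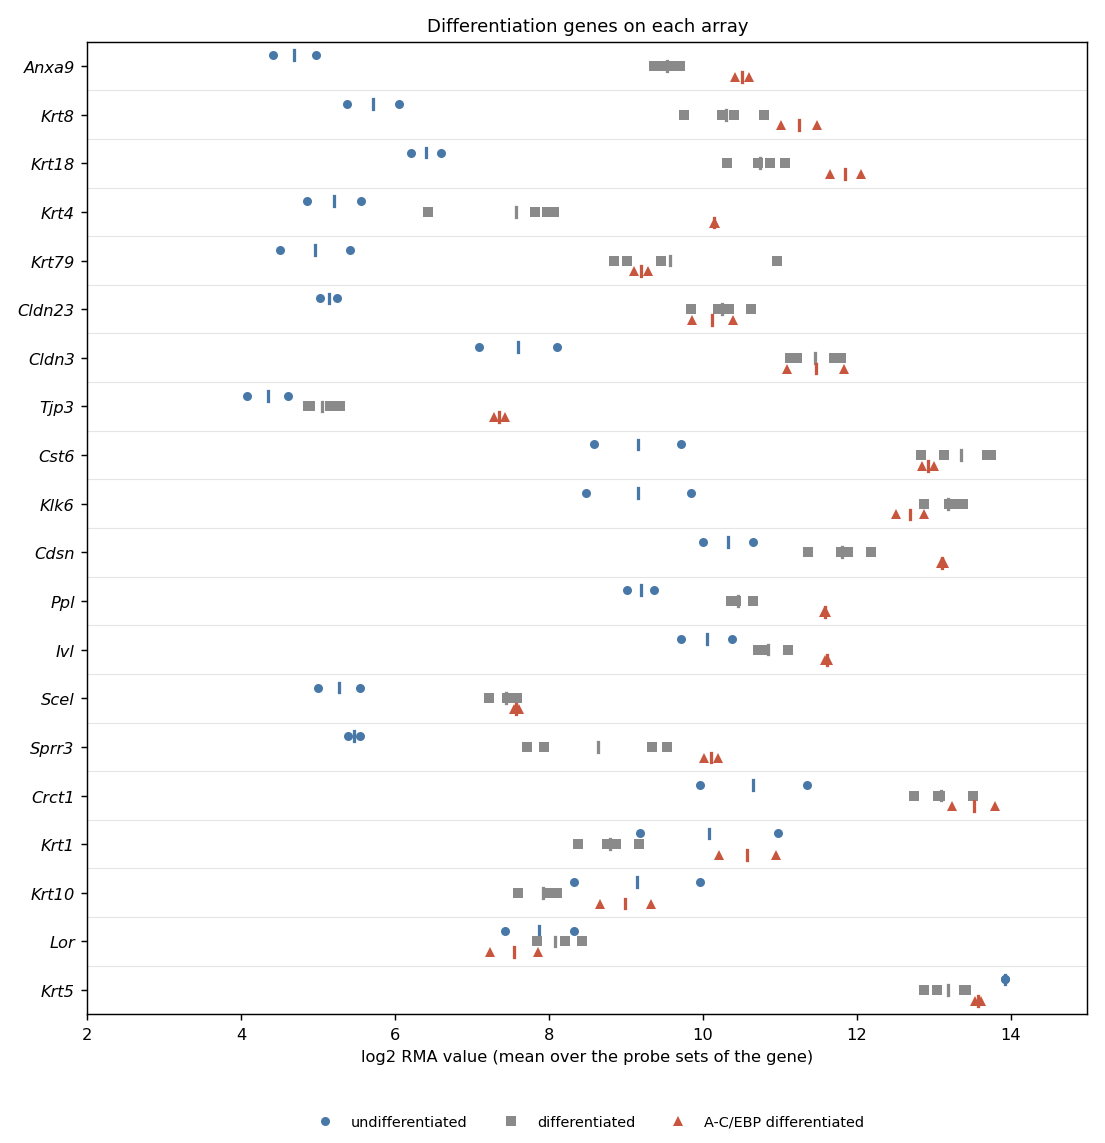
Log2 RMA values of 20 differentiation genes on the 2 undifferentiated (circles), 4 differentiated (squares) and 2 A-C/EBP differentiated arrays (triangles), with group means as bars. Krt8, Krt18 and Cldn23 are high in both differentiated groups, while for Krt1, Krt10 and Lor the A-C/EBP arrays overlap with the undifferentiated ones.

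Genes of the tight junction, which seals the granular layer, rose with C/EBP blocked. Of 28 measured, 13 rose and none fell, where 7.6% and 8.01% of all genes did, with a median of 0.31. In ordinary differentiation 12 rose, where 6.64% of all genes did. Cldn23, a claudin, rose from 5.03 and 5.24 to 10.39 and 9.86, a difference of 4.99 ± 0.24 (SE, adjusted p = 4.8e-06). The differentiated arrays lay between 9.85 and 10.62, level with A-C/EBP, and the direct difference was -0.13 (adjusted p = 0.891). Cldn3 rose by 3.87 with A-C/EBP and 3.86 without, Cldn7 by 2.29 and 2.27, and Ocln, occludin, by 1.49 and 1.40. The call for Cldn7 was lost without A-C/EBP replicate 1 (adjusted p = 0.0517). Cldn4, one of the genes followed in the study, went from 11.19 and 10.37 to 13.22 and 12.21, a difference of 1.93 (adjusted p = 0.0172) that did not pass without A-C/EBP replicate 1 (adjusted p = 0.126) or without undifferentiated replicate 2 (adjusted p = 0.127). Tjp3, the scaffold protein ZO-3, differed from the rest. It was at 4.08 and 4.61 in undifferentiated cells, at 4.87 to 5.28 on the differentiated arrays and at 7.43 and 7.28 with A-C/EBP. Its undifferentiated values lay below the median probe set, so the fold over them has no firm base. The direct difference of 2.31 passed (adjusted p = 0.000237), also without either A-C/EBP array.

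The desquamation genes, proteases and inhibitors that control the loss of surface cells, rose most often. Of 30 measured, 17 rose and none fell, where 7.6% and 8.01% of all genes did, with a median of 1.18. In ordinary differentiation 18 rose, where 6.64% of all genes did, with a median of 1.37. Cst6, the protease inhibitor cystatin M, rose from 8.59 and 9.72 to 13.01 and 12.85. Klk6 and Klk7, kallikrein proteases, rose by 3.53 and 2.15, and Tmprss11e, a membrane serine protease, by 3.87. The values in ordinary differentiation were 4.20 for Cst6, 4.04 for Klk6, 1.95 for Klk7 and 4.44 for Tmprss11e. Cdsn, the corneodesmosome protein corneodesmosin, rose from 10 and 10.65 to 13.13 and 13.1. On the differentiated arrays it lay below both A-C/EBP arrays, and the direct difference was 1.31 (adjusted p = 0.0186), which did not pass without either A-C/EBP array (0.0751 and 0.156). Spink12, an inhibitor of serine proteases, went the other way. It was at 9.46 to 10.19 on the differentiated arrays, but at 7.64 and 5 with A-C/EBP, and the undifferentiated cells were at 5.24 and 4.28. Its rise of 1.56 did not pass (adjusted p = 0.212), and the direct difference of -3.38 did (adjusted p = 0.0259) but not without A-C/EBP replicate 2 (adjusted p = 0.168).

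Cornified envelope genes were uneven. Of 19 scaffold and crosslinking genes 6 rose and 2 fell, where 7.6% and 8.01% of all genes did. Ppl, the plakin periplakin, rose from 9.02 and 9.37 to 11.57 and 11.6, a difference of 2.39 ± 0.15 (SE, adjusted p = 1.3e-05) beside 1.26 in ordinary differentiation. The direct difference of 1.12 passed (adjusted p = 0.00369) and held without either A-C/EBP array. Ivl, involucrin, rose from 9.72 and 10.38 to 11.59 and 11.63. It rose by 1.56 with A-C/EBP and by 0.80 without, and the direct difference of 0.76 did not pass (adjusted p = 0.0577). Scel, sciellin, rose by 2.30 and 2.17. Evpl, envoplakin, rose by 0.99 with A-C/EBP, and its 0.23 in ordinary differentiation did not pass. Lor, loricrin, the main protein of the finished envelope, was at 7.43 and 8.32 against 7.86 and 7.23 and did not pass. Tgm3 and Tgm5, transglutaminases that crosslink the envelope, fell by 0.97 and 0.97, with falls of 0.95 and 1.07 in ordinary differentiation. The call for Evpl was lost without A-C/EBP replicate 1 (adjusted p = 0.0611) or undifferentiated replicate 1 (0.0561), and that for Tgm3 without A-C/EBP replicate 2 (0.0502) or undifferentiated replicate 1 (0.0656).

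Psors1c2, a gene beside Cdsn that is expressed in skin, gave the largest rise of the scaffold list. It was at 6.29 and 5.97 in undifferentiated cells and at 9.77 and 10.18 with A-C/EBP, a difference of 3.84 ± 0.20 (SE, adjusted p = 7.25e-06). On the differentiated arrays it was at 6.23 to 6.58, level with undifferentiated cells. The direct difference was 3.60 (adjusted p = 1.86e-05), and it held without either A-C/EBP array.

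Some small proline-rich and late cornified envelope genes passed the test. Of 9 small proline-rich genes 2 rose and 1 fell, where 7.6% and 8.01% of all genes did. Sprr1a, one of the genes followed in the study, rose from 12.43 and 13.2 to 14.42 and 14.51, near the top of the scale, and Sprr3 from 5.39 and 5.55 to 10.2 and 10.01. Of 19 late cornified envelope genes 3 rose and none fell, with a median of 0.56, and 5 rose in ordinary differentiation, with a median of 1.35. Crct1 rose by 2.86 and 2.44. Lce1m rose from 4.27 and 5.38 to 8.26 and 9.64 and was at 6.73 to 7.39 in differentiated cells. Its direct difference of 1.94 passed (adjusted p = 0.0434) but not without A-C/EBP replicate 2. Lce1f was at 6.07 and 7.6 against 7.81 and 6.46, with a rise of 2.31 in ordinary differentiation only. That Lce1f failed with A-C/EBP is not shown, since the direct difference of -2.02 did not pass (adjusted p = 0.0821). Cnfn, cornifelin, was at 10.24 and 11.32 against 11.36 and 10.71. It rose by 1.72 in ordinary differentiation, and the direct difference of -1.46 passed (adjusted p = 0.0425) but not without either A-C/EBP array (0.0568 and 0.401).

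Prr9, a proline-rich gene of the same cluster, rose with A-C/EBP and not in ordinary differentiation. It was at 9.34 and 9.31 in undifferentiated cells, at 8.34 to 8.63 on the differentiated arrays and at 10.8 and 12.26 with A-C/EBP. The rise of 2.21 with A-C/EBP passed (adjusted p = 0.00281), the difference of -0.83 in ordinary differentiation did not, and the direct difference of 3.03 passed, also without either A-C/EBP array.

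Promoter sequences are shown for 2 genes of the epidermal differentiation cluster, Ivl and Prr9, and 2 inflammatory genes, Il33 and Ptgs2, chosen after their values were seen because a C/EBP or AP-1 motif lies in them and their mRNA differed from undifferentiated cells. RefSeq promoters, 250 bases before to 50 after each start on build GRCm38.p6, were matched to 14369 of the 18194 genes. Both strands were searched. In capitals are TGACTCA, an AP-1 motif, in Ivl and Prr9, a match to TTGCNNAA, a loose C/EBP motif, in 1 of the 2 Il33 promoters, and TTGCGCAA, the full C/EBP palindrome, in Ptgs2. Every TTGCGCAA is also a match to TTGCNNAA.

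Ivl, chr3:92573686-92573985, minus strand: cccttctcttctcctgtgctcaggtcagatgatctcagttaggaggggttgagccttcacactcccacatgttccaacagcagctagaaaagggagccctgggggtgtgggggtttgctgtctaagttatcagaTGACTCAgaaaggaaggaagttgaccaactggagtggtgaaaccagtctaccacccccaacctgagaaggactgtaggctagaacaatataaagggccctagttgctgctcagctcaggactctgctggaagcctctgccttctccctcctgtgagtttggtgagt

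Prr9, chr3:92123898-92124197, minus strand: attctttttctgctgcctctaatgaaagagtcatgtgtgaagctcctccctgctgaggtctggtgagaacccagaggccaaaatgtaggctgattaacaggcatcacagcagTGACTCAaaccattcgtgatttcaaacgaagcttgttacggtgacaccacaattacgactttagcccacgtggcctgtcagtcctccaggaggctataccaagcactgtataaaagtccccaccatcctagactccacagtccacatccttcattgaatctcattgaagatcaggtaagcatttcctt

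Il33, chr19:29945540-29945839, plus strand: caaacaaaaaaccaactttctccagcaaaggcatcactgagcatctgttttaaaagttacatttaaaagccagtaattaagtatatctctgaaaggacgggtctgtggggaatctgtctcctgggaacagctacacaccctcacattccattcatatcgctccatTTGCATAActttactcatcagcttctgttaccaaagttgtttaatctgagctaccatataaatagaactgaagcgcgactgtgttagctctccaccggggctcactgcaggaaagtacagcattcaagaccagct

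Ptgs2, chr1:150099781-150100080, plus strand: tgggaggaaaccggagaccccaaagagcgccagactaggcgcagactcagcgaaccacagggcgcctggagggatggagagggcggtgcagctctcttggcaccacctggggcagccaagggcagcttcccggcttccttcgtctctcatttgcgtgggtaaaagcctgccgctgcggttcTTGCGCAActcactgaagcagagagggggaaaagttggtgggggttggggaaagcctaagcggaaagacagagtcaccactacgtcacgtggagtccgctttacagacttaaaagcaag

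The AP-1 motif begins 116 bases before the start of Ivl and 138 before that of Prr9, and the C/EBP motifs begin 85 bases before the start of Il33 and 69 before that of Ptgs2. TTGCGCAA was in a promoter of 39 of all 14369 matched genes (0.271%). It was in 2 of the 1069 that rose with A-C/EBP (0.187%) and 6 of the 1183 that fell (0.507%), so those shares rest on a handful of genes. TTGCNNAA was in 10.8% of all, 10.5% of those that rose and 8.54% of those that fell. The AP-1 motif, TGACTCA or TGAGTCA, was in 5.34% of all, 7.3% of those that rose and 3.47% of those that fell. The CRE, TGACGTCA, was in 2.94%, 3.18% and 4.31%, and CCAAT in 42.0%, 39.9% and 47.1%. A match is a string of letters and not a measured site. These shares are a description, and no test was run on them. Among the 212 genes higher with A-C/EBP than in differentiated cells the AP-1 motif was in 22 (10.4%) and TTGCNNAA in 29 (13.7%). Among the 76 genes lower they were in 4 (5.26%) and 9 (11.8%).

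Genes of the lipid barrier and its building blocks rose in part. Of 21 genes of cholesterol synthesis 10 rose and none fell, where 7.6% and 8.01% of all genes did, with a median of 0.75. In ordinary differentiation 12 rose, where 6.64% of all genes did, with a median of 0.58. Tm7sf2, a sterol reductase, rose from 6.05 and 5.19 to 8.47 and 7.98. Sc5d, the sterol desaturase, rose by 1.52 with A-C/EBP and 0.54 without, and the direct difference of 0.98 passed (adjusted p = 0.0107). Idi1, the isomerase of the isoprenoid unit, rose by 1.08 with A-C/EBP and 1.75 without, and the direct difference of -0.67 passed (adjusted p = 0.0142). Neither passed without A-C/EBP replicate 2. Its relative Idi2 was at 4.3 and 3.66 in undifferentiated cells, at 7.64 to 8.33 on the differentiated arrays and at 6.04 and 3.98 with A-C/EBP. The undifferentiated values and that of A-C/EBP replicate 2 were below the median probe set. The A-C/EBP arrays overlap with the undifferentiated ones and lie below all the differentiated ones. The direct difference of -2.92 passed (adjusted p = 0.0142) and held without either A-C/EBP array, at -3.95 and -1.88. Of 40 genes of ceramides and other barrier lipids 5 rose and 5 fell, with a median of 0, where 7.6% and 8.01% of all genes did. Without A-C/EBP replicate 2 or without undifferentiated replicate 2 only 1 of them fell.

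Anxa9, an annexin, had the largest rise of all genes that met the naming rule. It was at 4.41 and 4.97 in undifferentiated cells and at 10.6 and 10.42 with A-C/EBP, a difference of 5.82 ± 0.18 (SE, adjusted p = 4.1e-07), or 56.5-fold. Its undifferentiated value lay below the median probe set on 1 of the 2 arrays, so its fold has no firm base. Most of this rise was also seen in ordinary differentiation. The direct difference was 0.97 (adjusted p = 0.0149), a call that was lost when either A-C/EBP array was left out. Clu, the chaperone clusterin, rose by 4.99, Gabrp, a GABA receptor subunit, by 4.70 and Arg1, arginase, by 4.27, beside 4.40, 4.61 and 4.07 in ordinary differentiation. For these 3 the direct differences were 0.58, 0.09 and 0.19 and did not pass. Adgre5, the adhesion receptor CD97, rose from 6.44 and 6.72 to 11.47 and 11.45 and was at 8.66 to 9.24 on the differentiated arrays. It was higher than in differentiated cells by 2.45 (adjusted p = 0.000165), also without either A-C/EBP array. Defb6, a beta-defensin, rose from 4.33 and 4.66 to 8.65 and 10.42, with its undifferentiated values below the median probe set. Egr2, an early growth response factor, rose by 3.92 with A-C/EBP and 4.60 without. Stfa3, a stefin that inhibits cathepsins, fell from 12.28 and 12.6 to 8.43 and 8.33, beside a fall of 4.39 in ordinary differentiation.

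**Figure D4:**
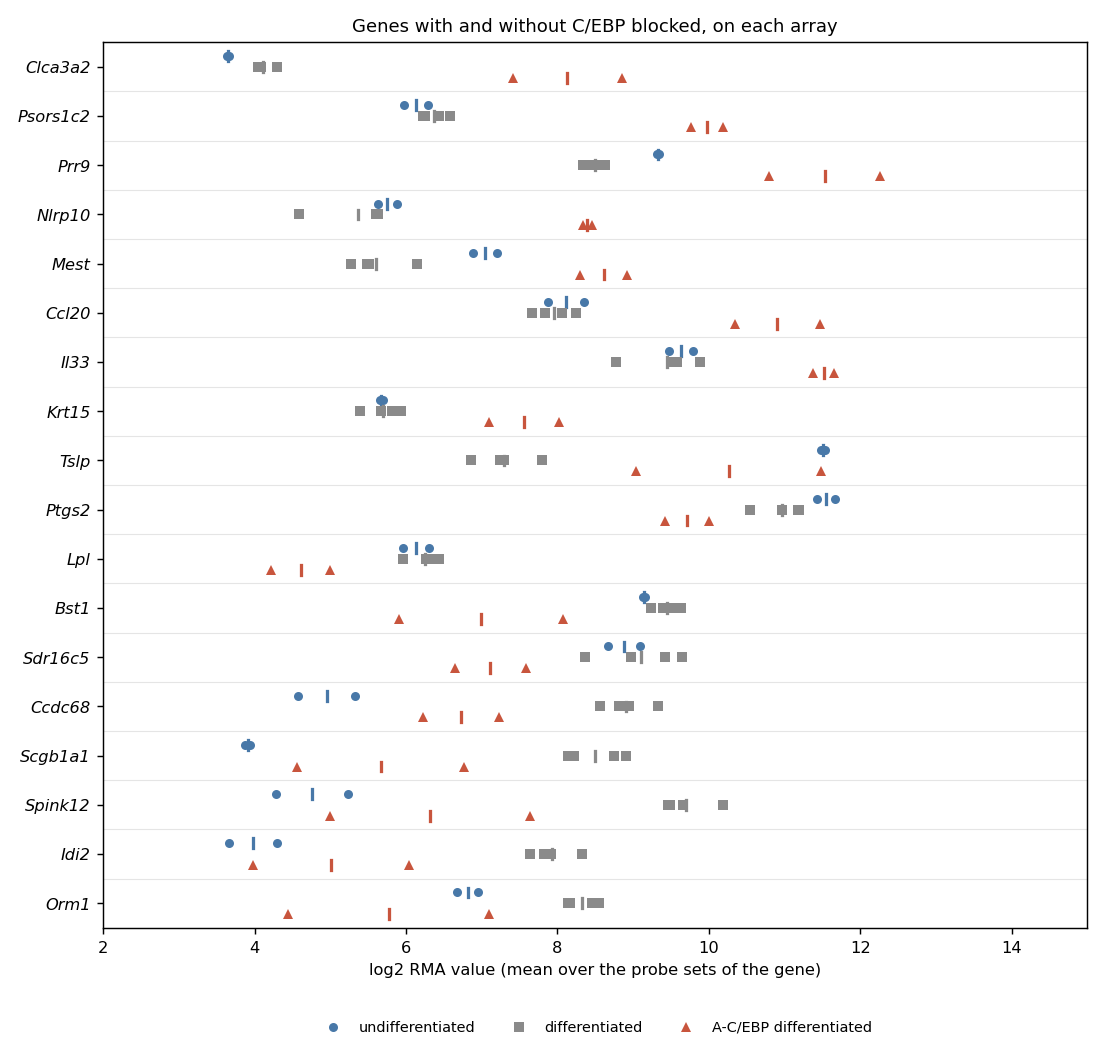
Log2 RMA values of 18 genes on the 2 undifferentiated (circles), 4 differentiated (squares) and 2 A-C/EBP differentiated arrays (triangles), with group means as bars. From Clca3a2 to Krt15 both A-C/EBP arrays lie above all the others shown, and from Ptgs2 to Orm1 they lie below all the differentiated arrays. The A-C/EBP replicates are furthest apart for Orm1 and Spink12.

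A set of genes rose with C/EBP blocked that did not rise in ordinary differentiation by its own test. Clca3a2, a chloride channel regulator, was at 3.66 and 3.64 in undifferentiated cells, at 4.04 to 4.3 on the differentiated arrays and at 7.41 and 8.85 with A-C/EBP. The first 2 groups lie below the median probe set, so its fold has no firm base. Mest, an imprinted gene, went in opposite directions. It was at 7.2 and 6.89 in undifferentiated cells, rose to 8.92 and 8.3 with A-C/EBP and fell to 5.28 to 6.15 in differentiated cells. The direct differences were 4.01 for Clca3a2 (adjusted p = 0.000491) and 3.00 for Mest (adjusted p = 0.000491), and both held without either A-C/EBP array.

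Some inflammatory genes rose with A-C/EBP. Of 31 cytokines, chemokines and their regulators 7 rose and 2 fell, where 7.6% and 8.01% of all genes did, and 4 rose and 1 fell in ordinary differentiation. Of 16 genes of the interleukin 1 family 4 rose and 2 fell, beside 1 and 2. Without A-C/EBP replicate 2, 5 cytokine genes rose and 0 interleukin 1 genes fell. Csf2, the growth factor GM-CSF, rose in both, by 3.21 with A-C/EBP and by 2.09 without. Ccl20, the chemokine that draws CCR6-bearing cells, was at 7.87 and 8.35 in undifferentiated cells, at 7.66 to 8.24 on the differentiated arrays and at 10.34 and 11.47 with A-C/EBP. The rise of 2.79 (adjusted p = 0.000314) and the direct difference of 2.95 (adjusted p = 0.00122) both held without either A-C/EBP array. Il33, an alarmin of the interleukin 1 family, rose from 9.47 and 9.79 to 11.38 and 11.65 and was at 8.77 to 9.88 in differentiated cells. Il1rn, the interleukin 1 receptor antagonist, rose by 1.08 and lay 1.47 above differentiated cells. Nlrp10, a sensor protein of the NLR family, rose from 5.88 and 5.63 to 8.34 and 8.45. The direct tests of Il33, Il1rn and Nlrp10 passed (adjusted p = 0.00886, 0.00369 and 0.00424) but not without A-C/EBP replicate 2 (0.107, 0.0505 and 0.0523). Cxcl2 and Tnf rose by 1.79 and 0.98, with direct differences of 1.37 and 1.06 that did not pass without that array (adjusted p = 0.235 and 0.232), nor that of Cxcl2 without either undifferentiated array (0.059). The rise of Tnf did not pass either without it (adjusted p = 0.103) or without undifferentiated replicate 1 (0.137). Il1b, a gene named in the study, was at 4.54 and 4.79 against 4.75 and 5.06 and did not pass.

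Tslp, the cytokine that starts type 2 inflammation, kept its undifferentiated level on 1 of the A-C/EBP arrays. It was at 11.48 and 11.53 in undifferentiated cells, at 6.86 to 7.79 on the differentiated arrays, and at 9.04 and 11.48 with A-C/EBP. It fell by 4.21 in ordinary differentiation, while the difference of -1.24 with A-C/EBP did not pass (adjusted p = 0.252). That difference was -0.02 without A-C/EBP replicate 1 and -2.46 without A-C/EBP replicate 2. The direct difference was 2.96 (adjusted p = 0.0238), with 1.74 and adjusted p = 0.0875 without A-C/EBP replicate 2.

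Ptgs2, the inducible cyclooxygenase whose promoter holds TTGCGCAA, fell. It was at 11.43 and 11.67 in undifferentiated cells and at 9.42 and 10 with A-C/EBP, a difference of -1.84 ± 0.27 (SE, adjusted p = 0.00128). The difference in ordinary differentiation was -0.58 and did not pass. The direct difference of -1.25 passed (adjusted p = 0.0284) but not without either A-C/EBP array (0.154 and 0.0748). Lpl, lipoprotein lipase, which is also 1 of the adipocyte markers, fell from 5.96 and 6.3 to 5 and 4.22 and lay between 5.96 and 6.43 in differentiated cells. Bst1, an ectoenzyme of NAD metabolism, fell from 9.15 and 9.13 to 8.07 and 5.91, and Sdr16c5, a retinol dehydrogenase, from 8.67 and 9.09 to 7.58 and 6.65. The gene 2010204K13Rik fell from 8.08 and 7.94 to 6.37 and 6.04 and was lower than in differentiated cells by 1.74, also without either A-C/EBP array. The direct differences of Lpl, Bst1 and Sdr16c5 were -1.64, -2.46 and -1.98 and passed, and that of Bst1 held without either A-C/EBP array while those of Lpl and Sdr16c5 did not pass without replicate 2 (0.0547 and 0.228). The fall of Bst1 did not pass without either undifferentiated array (0.0828 and 0.0745), nor that of Sdr16c5 without A-C/EBP replicate 2 (0.104) or undifferentiated replicate 2 (0.0901).

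Some genes lay lower on both A-C/EBP arrays than on all 4 differentiated arrays. Ccdc68, a centriolar protein, was at 5.32 and 4.58 in undifferentiated cells, at 7.23 and 6.22 with A-C/EBP and at 8.56 to 9.33 in differentiated cells. Its direct difference of -2.19 passed (adjusted p = 0.00886) but not without A-C/EBP replicate 2 (0.0909), and its rise of 1.77 did not pass without A-C/EBP replicate 1 (0.052) or undifferentiated replicate 2 (0.0632). Scgb1a1, the secretoglobin of airway club cells and a C/EBP target there, was at 3.88 and 3.94, at 6.77 and 4.56 and at 8.14 to 8.9 in the same order. Its undifferentiated values were below the median probe set, and its rise of 1.75 with A-C/EBP did not pass (adjusted p = 0.0683). The direct difference was -2.84 (adjusted p = 0.0206) and did not pass without A-C/EBP replicate 2 (adjusted p = 0.0831). Orm1, an acute phase protein of liver under C/EBP control, was at 6.68 and 6.95, at 7.1 and 4.44 and at 8.14 to 8.55, with a direct difference of -2.56 (adjusted p = 0.0423). That call held without either A-C/EBP array and was lost without either undifferentiated array (0.0664). Orm1 did not pass against undifferentiated cells in either comparison. Of 31 C/EBP targets known from other tissues 18 were below the median probe set on all 4 arrays. Of the 31, 2 rose and 2 fell with A-C/EBP, where 7.6% and 8.01% of all genes did. In ordinary differentiation 4 rose and none fell, where 6.64% and 9.13% of all genes did. In the direct test 4 were lower with A-C/EBP and none higher, where 0.583% of all genes were lower. Those 4 were Orm1, Scgb1a1, Ptgs2 and Gadd45g, and each was lost when 1 array or another was left out. Gadd45g, at -1.08 (adjusted p = 0.042), was lost without any 1 of the 4 A-C/EBP and undifferentiated arrays. Dnase1l3, one of the genes followed in the study, was at 5.9 and 5.98 in undifferentiated cells, at 7.4 and 6.03 with A-C/EBP and at 7.42 to 8.17 in differentiated cells. Its direct difference of -1.20 did not pass (adjusted p = 0.107).

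In some of these genes A-C/EBP replicate 1 lay between the differentiated arrays and replicate 2. This held for Scgb1a1, Orm1, Idi2, Spink12 and Dnase1l3, which were chosen after their values were seen. Against undifferentiated cells and without replicate 2, Scgb1a1, Spink12, Idi2 and Dnase1l3 rose by 2.86, 2.88, 2.07 and 1.46 (adjusted p = 0.00138, 0.00798, 0.00385 and 0.00996). Without replicate 1 the differences were 0.65, 0.24, 0 and 0.09 and did not pass. Orm1 gave 0.29 without replicate 2, which did not pass, and fell by 2.37 without replicate 1 (adjusted p = 0.000364). S100a8 and S100a9, the subunits of the alarmin calprotectin, showed it at high levels. S100a8 was at 10.2 and 11.2 in undifferentiated cells and at 11.67 and 8.74 with A-C/EBP, and S100a9 at 10.32 and 11.29 against 12.14 and 8.99. Neither passed. The difference of S100a9 was -0.24 with all arrays, 1.34 with replicate 2 left out (adjusted p = 0.0385) and -1.82 with replicate 1 left out (adjusted p = 0.00947). Over all genes, leaving out A-C/EBP replicate 2 reduced the direct test to 48 genes higher and 8 lower with A-C/EBP. Of the 52 genes that passed it and are named or met the naming rule, 15 then passed.

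None of the C/EBP genes themselves passed the test. Cebpa was at 8.65 and 8.71 in undifferentiated cells and at 9.12 and 8.85 with A-C/EBP, a difference of 0.31 with a 95% interval of -0.28 to 0.89. Cebpb was at 9.77 and 10.09 against 10.4 and 10.56, a difference of 0.55 with an interval of -0.26 to 1.35. All 5 measured members of the family failed the threshold, with a median of 0.31. Whether these probe sets also detect the transgene was not examined, and the level of the transgene was not analysed here. Fos, Fosl2, Jun, Junb, Creb1, Egfr and Star, which the study also names, gave differences between -0.51 and 0.30 that did not pass. Among 35 regulators of epidermal differentiation 6 rose and 1 fell, where 7.6% and 8.01% of all genes did. Elf5, an ETS factor of epithelia, rose from 3.92 and 4.13 to 6.85 and 7.31, with its undifferentiated values below the median probe set, and Elf3, its relative, rose by 3.02. Of 13 desmosome genes 1 rose and 2 fell, with 0 to 3 falls when 1 array was left out. Over all genes the shares were again 7.6% and 8.01%. Of the desmocollins, Dsc3 fell by 1.08 (adjusted p = 0.0133), while Dsc2 gave 0.61 and Dsc1 -0.99, which did not pass. The call for Dsc3 was lost without A-C/EBP replicate 2 (0.0944) or undifferentiated replicate 2 (0.105).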

How the data were processed

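The deposited values were log2 expression values per probe set of an Affymetrix mouse whole-genome array, which the authors made with RMA in Affymetrix Expression Console per the labels and the submitters' processing notes. RMA corrects background, brings the arrays to 1 distribution and summarises probes, so a shift shared by all genes cannot be seen, and low and very high values are compressed. Versions are not given in the sources used here. Arrays give no counts, and their number limits the precision.

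Of 45101 probe sets 64 were controls, and 34958 had a single gene symbol in the platform annotation, 932 several and 9211 none. Probe sets with a single symbol were averaged per gene on the log2 scale, giving 18194 genes, and for 9012 of these several probe sets were averaged. Of the probe sets with a single symbol 34754 matched a RefSeq gene, and 0 symbols changed.

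A mean per condition was fitted to all 10 arrays with limma 3.58.1 in R 4.3.3 (lmFit and eBayes, 6 residual and 3.86 prior degrees of freedom), so the 4 differentiated and the 2 5-AZA treated arrays contribute to the spread. P-values were two-sided and adjusted by the Benjamini-Hochberg method over all genes, and a gene was called at an adjusted p under 0.05. A 95% interval reached 0.33 to each side of the estimate in the median gene. An exact permutation test of 2 arrays against 2 cannot give a p under 0.333, so none was run. The fit was tested on simulated data. The alternatives were other scalings and probe set rules, filters on dim probe sets, a minimum fold and an ordinary t-test per gene. Further ones were a replicate block, the hybridization controls as a covariate, and each array left out in turn.

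Genes were named if they were in the study's text, among the 12 largest rises or falls with arrays that do not overlap, among the 5 smallest adjusted p of a list, or among the 6 largest differences from differentiated cells in each direction. Others were chosen after their values were seen. The comparison, the 47 gene lists (910 of 1006 symbols measured) and the rules were chosen with earlier results of these data known.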

Additional observations from a re-analysis of the deposited data

Results flagged for a closer look

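Outlying arrays were looked for in the group of 4 differentiated arrays, the only group large enough for Dixon's test, over the genes named and the array measures. Of 137 values tested, 9 genes and the highest probe set had an outlying array, where chance flags about 1 in 20 such values. Differentiated replicate 2 was low for the highest probe set (13.67), Sprr1a (13.57) and Cldn4 (11.66) and high for Gmnn (7.69). Differentiated replicate 3 was low for Krt4 (6.43) and Nlrp10 (4.59), and high for Peg3 (7.38) and Lce1d (10.25). Differentiated replicate 4 was high for Clca3a2 (4.30), and replicate 1 stood apart for Hspa5 (10.68). None of these arrays enters the comparison of A-C/EBP with undifferentiated cells other than through the estimate of spread.

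Probe sets without a single gene symbol were outside the gene table. Of 10092, 143 rose and 180 fell with A-C/EBP against undifferentiated cells, 1.42% and 1.78%, where over all 45037 probe sets 4.98% rose and 5.45% fell (limma, adjusted over all probe sets).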

How the results depend on the processing

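With a minimum fold of 0.5 on the log2 scale built into the test, 417 genes rose and 421 fell. An ordinary t-test per gene, 2 arrays against 2, called 1591 and 1559 genes without adjustment, and 0 and 0 after Benjamini-Hochberg. By comparison limma had called 1383 and 1457, with 4682 genes at an unadjusted p under 0.05. The study's methods name a t-test for comparing 2 samples, but they call mRNA changes by a fold threshold. A threshold of 1 in place of 0.5 left 1246 of 3447 genes. Leaving out 1 array at a time gave 851 to 1072 genes that rose, 853 to 1149 that fell and 3557 to 3759 that differed by more than 0.5. S100a9, at -0.24, was 1.34 without A-C/EBP replicate 2 and -1.82 without A-C/EBP replicate 1. With only the A-C/EBP and undifferentiated arrays in the fit, 1159 genes rose and 1203 fell. The replicate block gave 2014 and 2072 genes. Deviations of same-numbered arrays correlated at 0.31, which with 2 pairs is a single independent value, so the numbers are not shown to pair the samples. Median centring gave 1301 and 1334, quantile normalization 1607 and 1649, and the hybridization controls as a covariate 1748 and 1311. The median of all genes was 0 and the share of calls that rose 48.7% to 49.4% under these scalings. With 2 arrays a group, small changes can be missed. On the simulated data the fit recovered 73% of 100 genes changed by 1 on the log2 scale and 96% of 100 changed by 2, with 13 false calls. The simulated noise was normal and independent between genes and arrays, and far fewer genes were changed than were called in the data. These figures may therefore not carry over to the real arrays. Recovery of dim genes was not tested apart.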

Other observations

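Chaperones of the endoplasmic reticulum fell in part. Of 22 genes of the unfolded protein response 11 fell and none rose, where 8.01% and 7.6% of all genes did, with a median of -0.55. In ordinary differentiation 11 fell, where 9.13% of all genes did, with a median of -0.57. Without A-C/EBP replicates 1 and 2 in turn 7 and 5 fell, and without undifferentiated replicates 1 and 2 in turn 4 and 9. Hsp90b1, the chaperone GRP94, went from 11.76 and 11.65 in undifferentiated cells to 10.35 and 10.22 with A-C/EBP, and Manf, a secreted protein of the same response, from 11.66 and 11.24 to 10.07 and 10.13. Sdf2l1, a chaperone cofactor, fell by 1.51 and Hspa5, the chaperone BiP, by 0.79. The call for Hsp90b1 (limma adjusted p = 0.0192) was lost when any 1 of the 4 arrays was left out (0.0662 to 0.102), and that for Sdf2l1 without A-C/EBP replicate 1 (0.0615) or undifferentiated replicate 1 (0.0973).

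The stefins and the cystatin Cst3, which were listed together as inhibitors of cathepsins, moved in both directions. Of 5 measured, Stfa3, Stfa2l1 and Csta1 fell by 4.05, 3.27 and 2.09, and Cst3 and Cstb rose by 0.72 and 1.01. The call for Csta1 was lost without A-C/EBP replicate 1 (adjusted p = 0.0665), A-C/EBP replicate 2 (0.0751) or undifferentiated replicate 2 (0.111). In ordinary differentiation the differences were -4.39, -3.41, -2.07, 0.34 and 1.01 in the same order, of which that of Cst3 did not pass. Mgst2, a microsomal glutathione transferase, fell from 8.57 and 8.97 to 7.13 and 6.18, and Gpx1, a glutathione peroxidase, from 12.74 and 12.56 to 11.83 and 11.71. Rsad2, the antiviral protein viperin, rose from 4.16 and 4.33 to 6.12 and 6.27, with its undifferentiated values below the median probe set. It was 1.6 above differentiated cells (limma adjusted p = 0.000592), also without either A-C/EBP array. Of 26 genes of the interferon response 5 rose and none fell, where 7.6% and 8.01% of all genes did, and 3 rose without A-C/EBP replicate 1 and 2 without replicate 2. Peg3, an imprinted gene, fell from 7.03 and 7.21 to 6.25 and 5.84 and was 1.19 below differentiated cells (limma adjusted p = 0.00492), which did not pass without A-C/EBP replicate 2 (adjusted p = 0.0585).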
